A study of Homo sapiens with 6 samples.

Results

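The long arm of human chromosome 4 was profiled gene by gene in sorafenib-resistant cells labelled Hep3B. Its members were the rows of the deposited table on the primary chromosome 4 of build GRCh38 that start above position 50000000, ordered by start, with names of ZNF and a digit left out. This gave 386 of the 17381 listed genes, and 2 zinc finger genes, ZNF330 and ZNF827, were left out by the name. Messenger RNA was sequenced in 6 libraries, 3 labelled STIM1 knockout and 3 labelled wildtype (control), all of the sorafenib-resistant line, and the labels name no other treatment or time. Hep3B is a cell line from a human hepatocellular carcinoma, sorafenib is a kinase inhibitor used against that cancer, and STIM1 is the calcium sensor of the endoplasmic reticulum that opens calcium entry at the plasma membrane. The labels do not say how many knockout clones were made or whether libraries came from separate cultures, so p-values measure the spread between these libraries, which may be technical.

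The deposited table holds 1 mean for each group, whose digits were enough to find the whole reads behind it, library by library. A library found in this way has no sample number, and the letters A, B and C follow the size factor from high to low. Values per library are read counts divided by the size factor of the library (normalised read counts), and they are given in the order A, B, C. The 3 knockout libraries held 11925842 to 14951050 reads and the 3 control libraries 13707394 to 16223940, with a median coefficient of variation between libraries of 2.68% in knockout and 2.87% in control over genes with a mean of at least 1000 in the group.

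Labels were checked first. STIM1 itself was higher in the libraries labelled STIM1 knockout, at 1454, 1439 and 1422, against 1047, 972 and 836 in control (log2 change 0.60, SE 0.06, limma adjusted p = 8.89e-07, n = 3 each), and the groups did not overlap. A read count says nothing of a small deletion or of the protein, so the knockout is named below only as the libraries are labelled. The genotype field of the 3 knockout samples reads STIM1, STIM2 and STIM3 knockout, while the titles give a single STIM1 knockout group. Of 17 liver and liver carcinoma markers 11 were listed, and 4 of them had a mean of at least 10. Albumin (ALB) and alpha-fetoprotein (AFP), both on the long arm of chromosome 4, had 1 read in all in knockout and 0 in control, and APOA1 had 2 reads in each group. The keratins KRT8 and KRT18 were abundant, so the summed level of the list was 38482 to 40191 in knockout libraries and 26914 to 27964 in control libraries. By the authors' adjusted p under 0.05, 25.7% of all listed genes rose and 28.8% fell in knockout. The counts of each marker list in this paragraph use the same rule and stand beside these shares. Of the list 3 rose and 1 fell, and HNF4A, a transcription factor of hepatocytes, rose, with a mean of 817 in knockout and 219 in control. These defining secreted proteins of the liver were thus at or near 0 in cells labelled Hep3B. Some other markers also differed between the groups, in lists of few genes. The summed level of 8 fibroblast markers was 143 to 419 in knockout libraries and 2909 to 3040.4 in control libraries, and 4 of the 8 fell and none rose. FAP had a mean of 0 in knockout and 102 in control, while POSTN, at 0 in knockout and 1.29 in control, did not pass. For 6 endothelial markers the sums were 19.5 to 26.2 in knockout and 134 to 166 in control (1 fell). For 8 blood and immune markers they were 205 to 259 in knockout and 1098 to 1188 in control (3 fell). PTPRC and MPO were at 0 in knockout and near 0 in control (means of 0.587 and 2.42), and neither passed. A single gene made up most of each control sum: THY1 had a mean of 0.953 in knockout and 2285 in control, PECAM1 3.01 in knockout and 123 in control, and CD68 58.4 in knockout and 915 in control. Some other markers of these lists did not pass, among them COL1A2 (77.7 in knockout and 117 in control), CDH5 (12.3 in knockout and 9.18 in control) and CSF1R (143 in knockout and 120.2 in control). For 8 kidney and neuronal markers the sums were 630.2 to 669 in knockout and 752 to 803 in control (1 rose and 2 fell). Fewer cells of a type and less RNA per cell cannot be told apart in such bulk samples, and the part of these markers in the results below was not tested.

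As background, genes that lie side by side on a chromosome can change together for reasons of position, such as a gain or loss of a chromosome segment or a shared chromatin state, or because they are copies of one another. The long arm of chromosome 4 carries clusters of duplicated genes, among them the CXC chemokines, the epidermal growth factor (EGF) receptor ligands, the alcohol dehydrogenases and the fibrinogen chains, several of which are characteristic of liver. Genes of the arm also include the growth factors VEGFC and FGF2, which act on vessels and stroma, and the chromatin proteins HMGB2 and H2AZ1.

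Promoter windows are shown for genes at the extremes of the change, to let their composition be read beside their values. They run from 250 bases before to 50 bases after the start of transcription, on the strand of the gene, and come from RefSeq on GRCh38.p14, with CG pairs (the sites of DNA methylation in promoters) in capitals. For each gene the window nearest its deposited 5' end was taken. The start used for EPGN lies 885 bases from that end, and those of the other genes shown lie at it. TRIML2 and RASGEF1B rose most and EPGN fell most, while VEGFC and CPE, from the stretch of lower genes described below, were chosen after their values were seen.
TRIML2 (chr4:188109554-188109853, minus strand): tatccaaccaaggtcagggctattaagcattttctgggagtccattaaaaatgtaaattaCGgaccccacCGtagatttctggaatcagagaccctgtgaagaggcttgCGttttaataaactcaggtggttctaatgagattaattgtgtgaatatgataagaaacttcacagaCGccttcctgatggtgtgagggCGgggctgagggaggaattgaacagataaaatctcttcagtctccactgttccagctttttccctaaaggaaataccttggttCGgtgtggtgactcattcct
RASGEF1B (chr4:81471858-81472157, minus strand): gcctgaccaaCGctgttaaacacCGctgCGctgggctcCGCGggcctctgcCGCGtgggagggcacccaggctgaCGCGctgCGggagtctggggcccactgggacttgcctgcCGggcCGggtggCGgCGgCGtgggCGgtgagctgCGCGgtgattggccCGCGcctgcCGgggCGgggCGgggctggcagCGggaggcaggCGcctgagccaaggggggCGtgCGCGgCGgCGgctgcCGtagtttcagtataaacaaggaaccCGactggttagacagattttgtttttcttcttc
EPGN (chr4:74308220-74308519, plus strand): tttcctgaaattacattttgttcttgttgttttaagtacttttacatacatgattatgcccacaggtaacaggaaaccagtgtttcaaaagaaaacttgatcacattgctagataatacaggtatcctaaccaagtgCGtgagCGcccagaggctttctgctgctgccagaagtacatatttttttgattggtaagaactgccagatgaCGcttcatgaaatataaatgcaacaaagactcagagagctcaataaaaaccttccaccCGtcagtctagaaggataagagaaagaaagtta
VEGFC (chr4:176792873-176793172, minus strand): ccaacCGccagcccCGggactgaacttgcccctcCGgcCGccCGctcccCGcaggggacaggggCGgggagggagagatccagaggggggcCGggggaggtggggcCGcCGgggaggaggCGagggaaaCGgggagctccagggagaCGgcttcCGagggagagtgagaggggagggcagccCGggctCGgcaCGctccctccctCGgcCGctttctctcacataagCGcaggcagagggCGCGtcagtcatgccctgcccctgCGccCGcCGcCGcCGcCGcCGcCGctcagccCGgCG
CPE (chr4:165378758-165379057, plus strand): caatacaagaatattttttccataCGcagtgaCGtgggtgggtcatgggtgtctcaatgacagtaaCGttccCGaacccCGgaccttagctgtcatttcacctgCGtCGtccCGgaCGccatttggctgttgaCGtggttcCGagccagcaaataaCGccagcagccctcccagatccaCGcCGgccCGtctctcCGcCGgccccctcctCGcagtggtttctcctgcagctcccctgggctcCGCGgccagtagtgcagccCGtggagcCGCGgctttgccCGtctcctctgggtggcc
The EPGN window held 4 CG pairs and the TRIML2 window 6, against 32 in RASGEF1B, 32 in VEGFC and 24 in CPE, so poor and rich windows stood on both sides of the change. Of the 386 genes of the arm 339 had a window, with a median of 23 CG pairs. The median was 26 in the 242 of these with a mean of at least 10, against 14 over all 35116 windows of the table. The 242 are 1 window per gene, while the 35116 are all windows, with no filter on level. The CG medians and the motif shares below therefore set unlike sets side by side. Each of 3 motifs was searched on both strands. The TATA box, spelled TATAAA, was in 8.26% of the 242 windows against 11.5% of all windows, in 13.0% of the 92 windows of genes that fell and in 6.58% of the 76 of genes that rose. The site of AP-1 factors, spelled TGANTCA, was in 5.37% of the 242 against 7.71% of all, in 6.52% of those that fell and 6.58% of those that rose. The E-box, spelled CACGTG, was in 11.2% of the 242 against 7.26% of all, in 6.52% of those that fell and 7.89% of those that rose, and in 20.3% of the 74 that did not pass. A match is a description of letters and not a binding site.

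Across the whole arm, changes in both directions were common, as they were in the genome, where 54.5% of listed genes passed in either direction. A gene is said to have risen or fallen where its adjusted p in the authors' deposited table is under 0.05. By that rule 87 of the 386 genes (22.5%) rose in the libraries labelled STIM1 knockout, where 25.7% of all listed genes rose, and 119 (30.8%) fell, where 28.8% of all listed genes fell. The other 180 did not pass. Both shares lay near those of the genome. A fit of limma to the recovered libraries tested 324 of the genes and called 101 higher and 125 lower, where 32.3% of all genes it tested were higher and 36.1% lower, and 206 genes were called alike by both. A filter of a mean of at least 10 over both groups left 277 genes, of which 83 rose, 108 fell and 86 did not pass, where 34.2% of all genes of that level rose, 36.7% fell and 71% did either. Of the 109 genes under that level 4 rose and 11 fell. The median change (log2 of knockout mean plus 1 over control mean plus 1) was -0.05 over the 386 genes and -0.04 over all listed genes.

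Large falls outnumbered large rises on the arm, as they did over the genome. Of the 386 genes, 61 (15.8%) fell by at least 1 on the log2 scale, against 10.8% of all listed genes, and 41 (10.6%) by at least 2, against 5.7%. Rises of at least 1 were seen in 24 genes (6.22%, against 6.16% of all listed genes) and of at least 2 in 8 (2.07%, against 1.19%). Among the 277 genes of mean 10 or more, the interquartile range of the changes was -0.63 to 0.36, against -0.47 to 0.39 over all genes of that level. In 27 of the 277 the lower group had a mean under 10, so that they reached the level only through the group where they are high, and 24 of these were lower and 3 higher in knockout. The libraries of the groups did not overlap for 239 of the 386 genes, against 63% of all genes, and for 215 of the 277, 102 higher and 113 lower in knockout, where 78.3% of all genes of that level did not overlap.

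**Figure D1:**
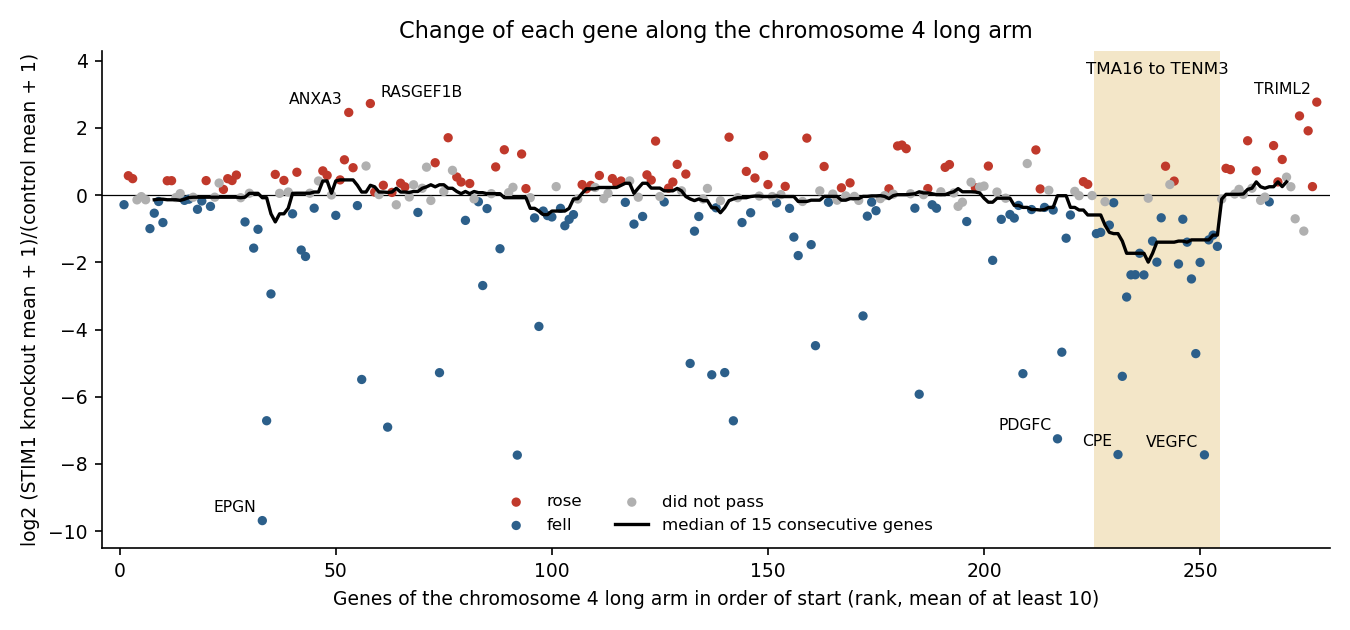
Each point is a gene of the chromosome 4 long arm with a mean of at least 10, in order of start (x axis, rank), with its log2 change of STIM1 knockout over control on the y axis (1 added to both means), coloured by the authors' call; the black line is the median of 15 consecutive genes. The line is lowest, at -1.99, in the shaded stretch from TMA16 to TENM3.

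Along the arm, 1 long stretch stood apart. In bins of 10 Mb, the median change (again over genes of mean 10 or more) was -1.26 from 160 to 170 Mb (18 genes, 14 fell and 1 rose) and -1.40 from 170 to 180 Mb (11 genes, 9 fell and 1 rose). The next lowest bins of the arm were 90 to 100 Mb at -0.54 (12 genes, 8 fell and 2 rose), 110 to 120 Mb at -0.45 (16 genes, 9 fell and 3 rose) and 150 to 160 Mb at -0.36 (23 genes, 13 fell and 4 rose). The highest were 180 Mb to the end at 0.25 (24 genes, 11 rose and 2 fell) and 100 to 110 Mb at 0.23 (27 genes, 14 rose and 5 fell). The other 7 bins had medians between -0.13 and 0.10. Over all genes of mean 10 or more 34.2% rose and 36.7% fell. Each knockout library gave the 2 low bins by itself: against the control mean the medians were -1.24, -1.30 and -1.38 from 160 to 170 Mb, and -1.26, -1.43 and -1.66 from 170 to 180 Mb.

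The place of these bins among all others was looked up after their values were seen. Among the 285 bins of the genome with at least 10 such genes they had the lowest and second lowest median, and they were the only bins under -1; the next was 50 to 60 Mb on chromosome 7, at -0.93. By the share of genes that fell the bin from 170 Mb was the second (81.8%) and that from 160 Mb the fifth (77.8%), after 110 to 120 Mb on chromosome X (87.0%). With bins shifted by 5 Mb, 165 to 175 Mb had the lowest median of 293 bins, -1.56, with 17 of 22 genes lower. Both bins hold under 20 genes. The longest run of consecutive genes with a change below 0 on the arm was 17, from NAF1 to HPF1, but chromosome 16 had a run of 56, chromosome 3 of 29 and chromosome 19 of 24. Neighbouring genes of the arm had the same sign in 61.2% of 276 pairs, close to the 59.8% of neighbours on other chromosomes.

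**Figure D2:**
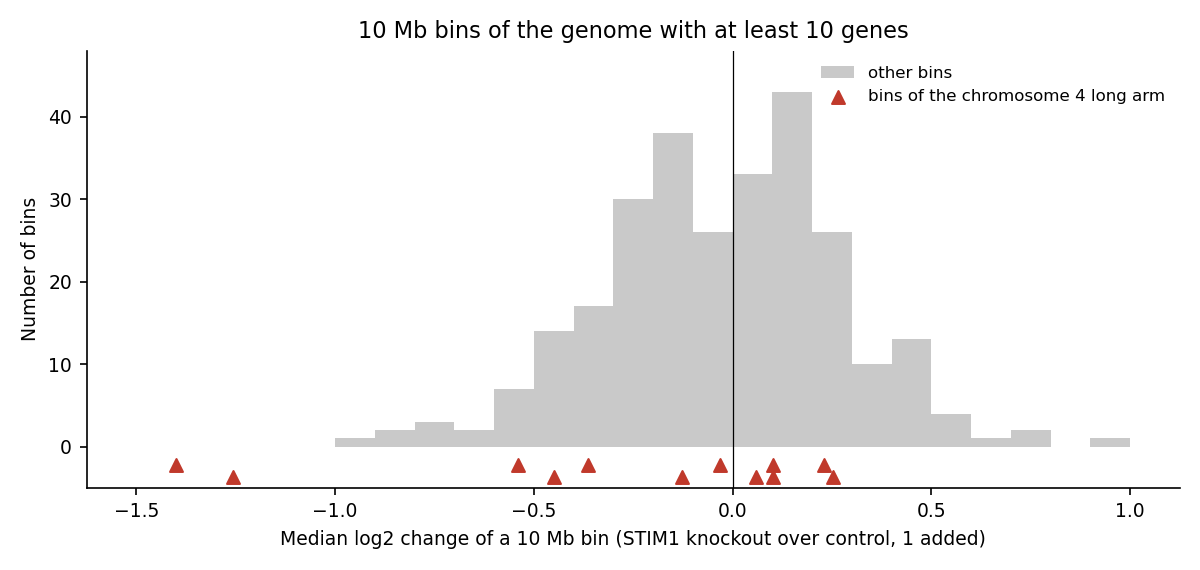
Grey bars count the 10 Mb bins of other parts of the genome with at least 10 genes by their median log2 change, STIM1 knockout over control; red triangles, drawn under the axis at alternating heights only to keep them apart, are the bins of the chromosome 4 long arm. The 2 leftmost triangles, at -1.40 and -1.26, lie below all grey bars.

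With its borders chosen after the values were seen, the low stretch ran over 18.0 Mb from TMA16 to TENM3. It held 36 listed genes, of which 29 had a mean of at least 10. Of these 24 fell (82.8%), 20 by at least 1 on the log2 scale, 2 rose and 3 did not pass, with a median of -1.40. Over all genes of that level 36.7% fell and 34.2% rose, and 10.8% of all listed genes fell by at least 1. Since the values chose the borders, these counts describe the stretch and are not a test of it. Among the other 248 genes of the arm of that level 81 rose and 84 fell (33.9%), with a median of 0.02. The genes on either side did not pass. NAF1, just before the stretch, had 591, 565 and 565 in knockout and 589, 585 and 559 in control, and DCTD, just after it, had 334, 377 and 341 in knockout and 336, 399 and 406 in control. For both the libraries of the groups overlapped.

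Genes of many functions fell there together. TMA16 (chr4:163494690-163520539), a ribosome-associated protein at the start of the stretch, had 263, 243 and 285 in knockout and 582, 603 and 569 in control (log2 change -1.15, SE 0.08, limma adjusted p = 3.29e-09). The interferon-induced helicase DDX60 (chr4:168216293-168325981) had 536, 566 and 694 in knockout and 3242, 2923 and 3144 in control (log2 change -2.38, SE 0.08, limma adjusted p = 8.08e-13), and its neighbour and relative DDX60L had 138, 139.7 and 178 in knockout and 820.1, 738 and 811 in control (log2 change -2.38, SE 0.10, limma adjusted p = 1.5e-11). For each of these 3 genes every knockout library lay below every control library. PALLD, which organises actin bundles, had 844, 863 and 885 in knockout and 2883, 2965 and 2759 in control (log2 change -1.73, SE 0.04, limma adjusted p = 3.79e-14). CLCN3, an endosomal chloride and proton exchanger, had 502, 429 and 449 in knockout and 1842, 1897 and 1769.8 in control (log2 change -2.00, SE 0.06, limma adjusted p = 3.79e-13). HMGB2 (chr4:173331376-173334358), a DNA-bending chromatin protein, had 1016, 947 and 945 in knockout and 4049, 4053 and 3943 in control (log2 change -2.05, SE 0.04, limma adjusted p = 3.54e-15). In all 3 the libraries of a group lay close together and the groups stood far apart.

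Further along, CEP44, a protein of the centriole, had 178, 161 and 169 in knockout and 935, 967 and 976 in control (log2 change -2.50, SE 0.07, limma adjusted p = 1.93e-13), and its neighbour FBXO8 on the other strand, whose exons overlap those of CEP44, had 129.6, 106 and 90.4 in knockout and 306, 269 and 291 in control (log2 change -1.41, SE 0.13, limma adjusted p = 1.46e-07). PALLD and CBR4 overlap in the same way, and since the use of strand in counting is not given in the sources used here, reads of such pairs may be shared. SPCS3, a subunit of the signal peptidase, had 458, 482 and 491 in knockout and 2044, 1949.8 and 1748 in control (log2 change -2.00, SE 0.06, limma adjusted p = 3.3e-13). NEIL3, a DNA glycosylase of replicating cells, had 189.6, 193 and 158 in knockout and 456, 462 and 448 in control (log2 change -1.34, SE 0.09, limma adjusted p = 5.12e-09). TENM3, the last of the stretch and a teneurin adhesion protein, had 129.6, 148 and 149.8 in knockout and 351, 435 and 450.0 in control (log2 change -1.52, SE 0.11, limma adjusted p = 8.65e-09). None of these groups overlapped.

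A few genes inside the stretch went otherwise. GALNT7, a glycosyltransferase of mucin-type glycosylation, had 434, 468 and 497 in knockout and 351, 376 and 318 in control and rose (log2 change 0.42, SE 0.08, limma adjusted p = 0.000276), although it lies next to HMGB2. MFAP3L also rose, with 103, 115 and 129.6 in knockout and 70.5, 51.1 and 68.4 in control (log2 change 0.87, SE 0.17, limma adjusted p = 0.000333). TMEM192, SH3RF1 and AADAT did not pass, with log2 changes of -0.19, -0.09 and 0.32. The stretch was therefore not lowered evenly. A shorter low region, also bordered after the values were seen, ran from RAP1GDS1 to PPP3CA, where 9 of 10 genes of mean 10 or more fell, with a median of -0.63. Of all genes of that level 36.7% fell. RAP1GDS1, an exchange factor of small GTPases, had 497, 515 and 516 in knockout and 824, 785 and 835 in control (log2 change -0.68, SE 0.05, limma adjusted p = 3.29e-08), and the groups did not overlap.

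**Figure D3:**
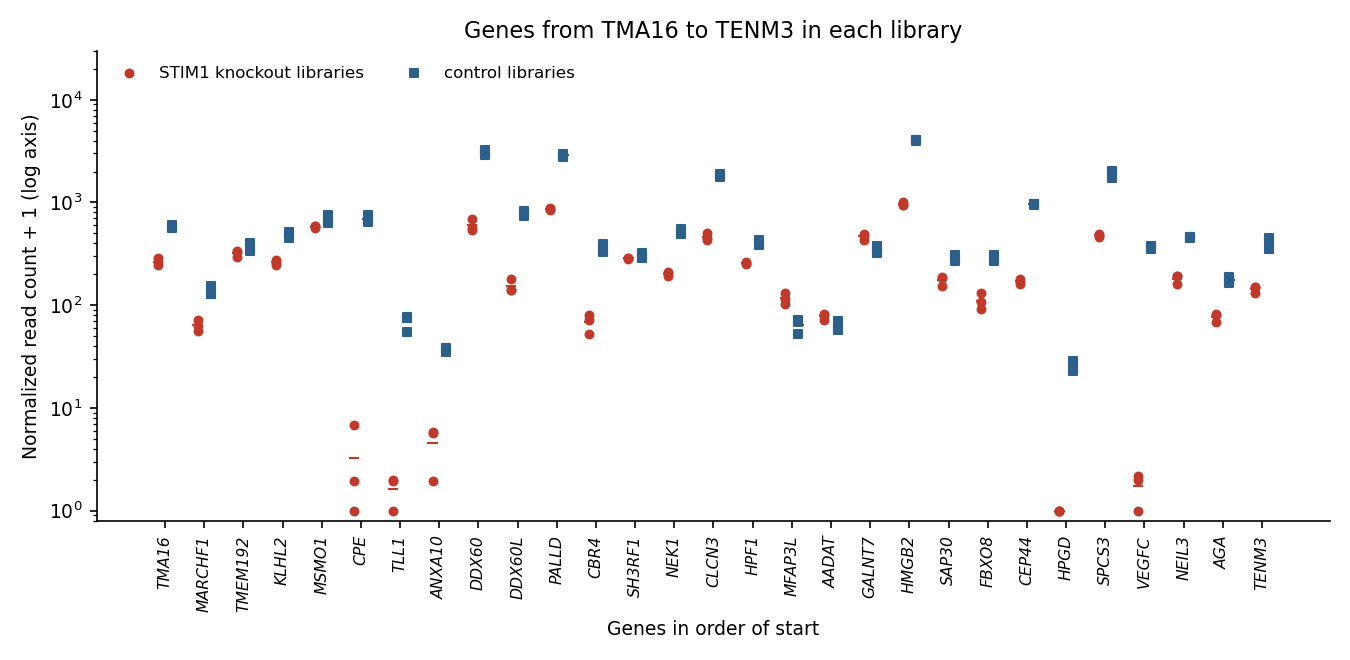
Normalised read counts plus 1 (log axis) of the 29 genes from TMA16 to TENM3 with a mean of at least 10, in order of start, with the 3 STIM1 knockout libraries (red circles, left) and the 3 control libraries (blue squares, right) of each gene and short lines at the group means. Red lies below blue for most genes, and CPE, TLL1, ANXA10, HPGD and VEGFC lie near the bottom in knockout.

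Some genes were near 0 in the libraries labelled knockout and well measured in control. By a rule made after the values were seen (a control mean of at least 50 and a knockout mean under 5% of it, so that the difference itself chose the genes), 16 of 248 genes were near 0 in knockout (6.45%, against 2.71% of all genes with that control mean), and 0 of 239 were near 0 in control (0.028% of all genes). They were spread over the arm and included EPGN, EREG, ANTXR2, SCD5, CDS1, ELOVL6, ALPK1, ANK2, ARSJ, FAT4, RNF150, PDGFC, CPE, TLL1 and VEGFC. Of all 16, only CPE, TLL1 and VEGFC lie in the stretch from TMA16 to TENM3. A window was held for 13 of them, with a median of 16 CG pairs, the TATA box in 3, the AP-1 site in 1 and the E-box in 0. The 229 windows of genes of mean 10 or more that were not near 0 had a median of 26 CG pairs. Of these 7.42% held the TATA box, 5.24% the AP-1 site and 11.8% the E-box. Motif counts in 13 windows are too few to compare, and the difference was not tested.

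EPGN (epigen, a ligand of the EGF receptor, chr4:74307585-74316789) had 0 reads in all 3 knockout libraries and 844, 898 and 732 in control, at least 804-fold lower when 3 reads over the knockout group are taken as the floor (log2 change -9.68, SE 0.24, limma adjusted p = 5.31e-14). PDGFC, a platelet-derived growth factor, also had 0 reads in knockout and 155, 149 and 151 in control, at least 147-fold lower (log2 change -7.25, SE 0.32, limma adjusted p = 3.34e-11). All control libraries of both genes were far above their knockout libraries. The floor and the intervals given here cover counting error only, and the fitted log2 changes of genes at 0 depend on the 1 that is added. ARSJ, of the arylsulfatase family, had 0 reads in knockout and 96, 109 and 108 in control, at least 101-fold lower (log2 change -6.72, SE 0.34, limma adjusted p = 1.8e-10).

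VEGFC (chr4:176683538-176792922), the growth factor of lymphatic vessels, had 0, 0.977 and 1.19 in knockout and 353, 365 and 376 in control, 2 reads against 1143, and the ratio of control to knockout, from the reads pooled over each group and divided by its summed size factors, was 531 (95% counting interval 147 to 4389; log2 change -7.81, SE 0.31, limma adjusted p = 1.08e-11). CPE (chr4:165379008-165498547), which trims peptide hormones, had 0.953, 5.86 and 0 in knockout and 683, 640.3 and 747 in control (log2 change -8.18, SE 0.48, limma adjusted p = 8.55e-10), so its knockout reads came mostly from library B. SCD5, a desaturase of fatty acids, had 0, 1.95 and 1.19 in knockout and 262, 228 and 245 in control, a ratio of control to knockout, from pooled reads in the same way, of 238 (81.2 to 1157; log2 change -7.04, SE 0.36, limma adjusted p = 1.86e-10). For all 3 genes every control library lay far above every knockout library.

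The largest rises were smaller than the largest falls. TRIML2 (chr4:188091255-188109603), a member of the tripartite motif family, had 115, 89.9 and 90.4 in knockout and 15.9, 13.5 and 11.4 in control (log2 change 2.77, SE 0.23, limma adjusted p = 3.95e-08). RASGEF1B (chr4:81426393-81471907), an exchange factor of Ras-family GTPases, had 157, 172 and 175 in knockout and 19.4, 25.1 and 29 in control (log2 change 2.75, SE 0.19, limma adjusted p = 4.71e-09). ANXA3 (chr4:78551761-78610447), a calcium-dependent membrane-binding annexin, had 1864, 1929 and 1906 in knockout and 337, 353 and 341 in control (log2 change 2.46, SE 0.05, limma adjusted p = 5.02e-15). All 3 were higher in every knockout library. TLR3, the receptor of double-stranded RNA, had 147, 134 and 128 in knockout and 37, 31.8 and 37.3 in control (log2 change 1.92, SE 0.16, limma adjusted p = 6.65e-08). CAMK2D, a calcium and calmodulin-dependent kinase, had 546, 602 and 514 in knockout and 164, 149 and 187 in control (log2 change 1.73, SE 0.10, limma adjusted p = 4.65e-10). PTPN13, a tyrosine phosphatase whose exons overlap those of MAPK10 on the other strand, had 1026, 1095 and 1002 in knockout and 328, 322 and 303 in control (log2 change 1.71, SE 0.06, limma adjusted p = 3.03e-12). SPRY1, an inhibitor of receptor kinase signalling, and STOX2 completed the 8 largest rises among genes with a mean of at least 50, with log2 changes of 1.70 and 1.63. Some genes under that mean rose by more than these 2. Among them were CXXC4, FAM149A and CCDC110, with changes of 2.63, 2.59 and 2.36 on the deposited means with 1 added. The region after the low stretch, from DCTD to TRIML2, held 23 genes of mean 10 or more, of which 11 rose and 1 fell. Over all genes of that level 34.2% rose and 36.7% fell.

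**Figure D4:**
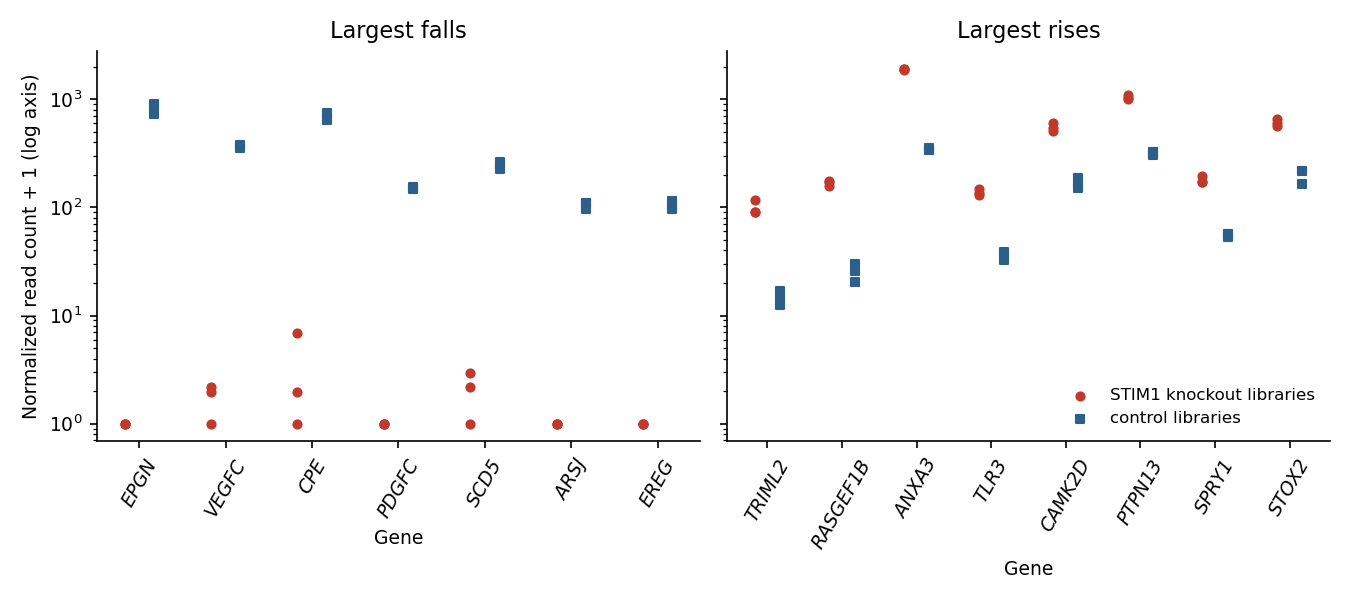
Normalised read counts plus 1 (log axis) of 7 of the 8 genes with the largest falls (left panel) and the 8 with the largest rises (right panel), with STIM1 knockout libraries (red circles, left of each gene) and control libraries (blue squares, right). The genes were taken among those with a mean of at least 50. Knockout libraries lie at 1, that is 0 reads, for EPGN, PDGFC, ARSJ and EREG.

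In the duplicated ligand clusters all calls were falls, in lists of few genes. The counts of this list and those below stand beside 25.7% of all listed genes that rose and 28.8% that fell or, where each measured gene of a list had a mean of at least 10, beside 34.2% and 36.7% at that level. Several lists below also hold genes of the stretch from TMA16 to TENM3, such as CBR4, HMGB2 and PALLD. Falls of such genes are counted both there and here. The EGF receptor ligands other than EGF lie close together on the arm, and 3 of the 5 measured fell, EPGN, EREG and AREG, while BTC and EGF did not pass (60% fell, against 28.8%); the list's median was -2.94, against -0.04 over all listed genes. EREG (epiregulin) had 0 reads in knockout and 102, 115 and 95.4 in control, at least 101-fold lower (log2 change -6.71, SE 0.34, limma adjusted p = 1.87e-10), and AREG (amphiregulin) had 3.81, 0.977 and 4.76 in knockout and 26.4, 34.7 and 32.1 in control (log2 change -3.07, SE 0.42, limma adjusted p = 1.2e-05). Among 9 measured CXC chemokines, which attract leukocytes, 5 fell (CXCL8, CXCL3, CXCL2, CXCL10 and CXCL11), none rose and the median was -1.63 (55.6% fell, against 28.8%). CXCL10 had 20, 19.5 and 23.8 in knockout and 69.6, 61.7 and 71.5 in control (log2 change -1.64, SE 0.21, limma adjusted p = 6.41e-06), and CXCL8 had 0, 0.977 and 1.19 in knockout and 10.6, 17.4 and 14.5 in control (log2 change -3.19, SE 0.49, limma adjusted p = 3.43e-05). Most chemokine counts were low, 6 of the 9 having a mean under 10.

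Liver-type genes of the arm were barely measured. The 2 listed albumin genes, the fibrinogen chains FGA, FGB and FGG, and CFI did not pass, and each of these had a mean under 10. The contact factors F11 and KLKB1 were not among the rows analysed here. FGB, the fibrinogen beta chain, had 5.72, 0 and 4.76 in knockout and 4.4, 0.964 and 5.18 in control. Of 4 measured alcohol dehydrogenases only ADH5, which handles formaldehyde and is used by most tissues, fell, with 1596, 1596 and 1583 in knockout and 2630.4, 2464 and 2395 in control (log2 change -0.65, SE 0.04, limma adjusted p = 1.44e-09). The 3 receptor kinases at 4q12 (PDGFRA, KIT and KDR) had under 3 reads in each group. Of 4 bone matrix phosphoproteins none passed, and SPP1 (osteopontin) varied within groups, with 10.5, 40 and 2.38 in knockout and 37.9, 16.4 and 3.11 in control. None of the 12 genes listed for glucuronosyltransferases and sulfotransferases was among the rows analysed here.

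Most metabolic genes that passed had fallen. In lipid and sterol metabolism 11 of 18 measured genes fell and 3 rose (GPAT3, PPA2 and HADH), with a median of -0.57 against -0.04 over all listed genes (61.1% fell, against 28.8%, and 16.7% rose, against 25.7%). For the 14 of these with a mean of at least 10 the median was -0.31, against -0.02 over all genes of that level. ELOVL6, which lengthens fatty acids, had 12.4, 9.77 and 8.32 in knockout and 370.0, 358 and 348 in control (log2 change -5.03, SE 0.18, limma adjusted p = 4.24e-12), and HADH, of mitochondrial fatty acid oxidation, had 1347, 1263 and 1164 in knockout and 987, 895 and 880.3 in control (log2 change 0.45, SE 0.06, limma adjusted p = 7.78e-06). Among 11 genes of amino acid, purine and redox metabolism 7 fell and none rose, with a median of -0.21 (63.6% fell, against 36.7% at that level). SLC7A11, which exchanges glutamate for cystine and so feeds glutathione, had 90.5, 95.7 and 109 in knockout and 1202, 1299 and 1107 in control (log2 change -3.60, SE 0.09, limma adjusted p = 5.95e-14), with every knockout library far below every control library. PAICS, of purine synthesis, fell by much less, at 4849, 4828 and 4797 in knockout and 5431, 5311 and 5373 in control (log2 change -0.15, SE 0.03, limma adjusted p = 9.01e-05).

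In the list of innate immune genes 3 of 11 rose (HERC5, NFKB1 and TLR3) and 3 fell (HERC3, DDX60 and DDX60L). Each share was 27.3%, below the 34.2% that rose and the 36.7% that fell at that level. The median was 0.04. With limma 5 of the 11 rose, a share above the 32.3% of all genes it tested that were higher. Whether the share of rises lay above or below that of the genome therefore depended on the test. HERC5, an interferon-induced ubiquitin-like ligase, had 1799, 1725 and 1807 in knockout and 932, 1018 and 1025 in control (log2 change 0.84, SE 0.05, limma adjusted p = 4.39e-10), while the neighbouring HERC3 had 416, 317 and 319.9 in knockout and 1128, 1059 and 1004 in control (log2 change -1.61, SE 0.09, limma adjusted p = 5.37e-10). These 2 relatives therefore moved in opposite directions, with libraries that did not overlap.

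Of 21 cell cycle and chromosome genes, 10 fell (47.6%, against 36.7% at that level) and 4 rose (19.0%, against 34.2%), with a median of -0.06 against -0.02 over all genes of that level. H2AZ1, a histone variant, had 3568, 3433 and 3482 in knockout and 5982, 5594 and 5688 in control (log2 change -0.72, SE 0.03, limma adjusted p = 3.44e-11), and SMARCA5, a chromatin remodeller, had 2914, 2921 and 2983 in knockout and 3841, 3871 and 3830.0 in control (log2 change -0.39, SE 0.03, limma adjusted p = 1.52e-08). Of 26 genes of translation, RNA and secretion 13 fell (50%, against 36.7% at that level) and 8 rose (30.8%, against 34.2%), with a median of -0.14. RPS3A, a ribosomal protein gene whose exons overlap those of SH3D19 on the other strand, had 13312, 12955 and 12962 in knockout and 22533, 20899 and 21184 in control (log2 change -0.72, SE 0.03, limma adjusted p = 7.08e-12), whereas G3BP2, a stress granule protein, had 4497, 4545 and 4552 in knockout and 3428, 3376 and 3223 in control (log2 change 0.44, SE 0.03, limma adjusted p = 7.54e-09).

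Of 9 calcium, cyclic GMP and annexin genes 5 rose (ANXA3, MCUB, CAMK2D, PDE5A and ANXA5) and 3 fell (PKD2, PPP3CA and ANXA10), with a median of 0.32 (55.6% rose, against 25.7%, and 33.3% fell, against 28.8%). ANXA5 had 4485, 4644 and 4555 in knockout and 3754, 3735 and 3498 in control (log2 change 0.32, SE 0.03, limma adjusted p = 6.18e-07), while PPP3CA, the catalytic subunit of the calcium-dependent phosphatase calcineurin, had 779.5, 832 and 754 in knockout and 1235, 1199.6 and 1101 in control (log2 change -0.58, SE 0.06, limma adjusted p = 2.4e-07). Among 13 genes of BMP, WNT, Hedgehog and FGF signalling 4 rose, among them BMP2K, LEF1 and SPRY1, and 3 fell (ANTXR2, FGF2 and VEGFC), with a median of 0.42 (30.8% rose, against 25.7%, and 23.1% fell, against 28.8%), shares near those of the genome. FGF2, a fibroblast growth factor whose exons overlap those of NUDT6 on the other strand, had 318, 327 and 335 in knockout and 775, 794 and 766 in control (log2 change -1.25, SE 0.06, limma adjusted p = 7.99e-11). Of 21 adhesion, matrix and cytoskeleton genes 5 fell and 3 rose, and 13 did not pass, with a median of -0.05 (23.8% fell, against 28.8%, and 14.3% rose, against 25.7%). In this list 11 genes had a mean under 10. The median of the other 10 was -0.57, against -0.02 over all genes of that level. These 10 include PALLD, TLL1 and TENM3, which fell and lie in the stretch from TMA16 to TENM3. FAT4, a large cadherin, had 18.1, 11.7 and 14.3 in knockout and 341, 351 and 357 in control (log2 change -4.50, SE 0.18, limma adjusted p = 1e-11), whereas the related FAT1 had 1321, 1373 and 1415 in knockout and 1154, 1158 and 1131 in control (log2 change 0.25, SE 0.04, limma adjusted p = 7.99e-05).

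**Figure D5:**
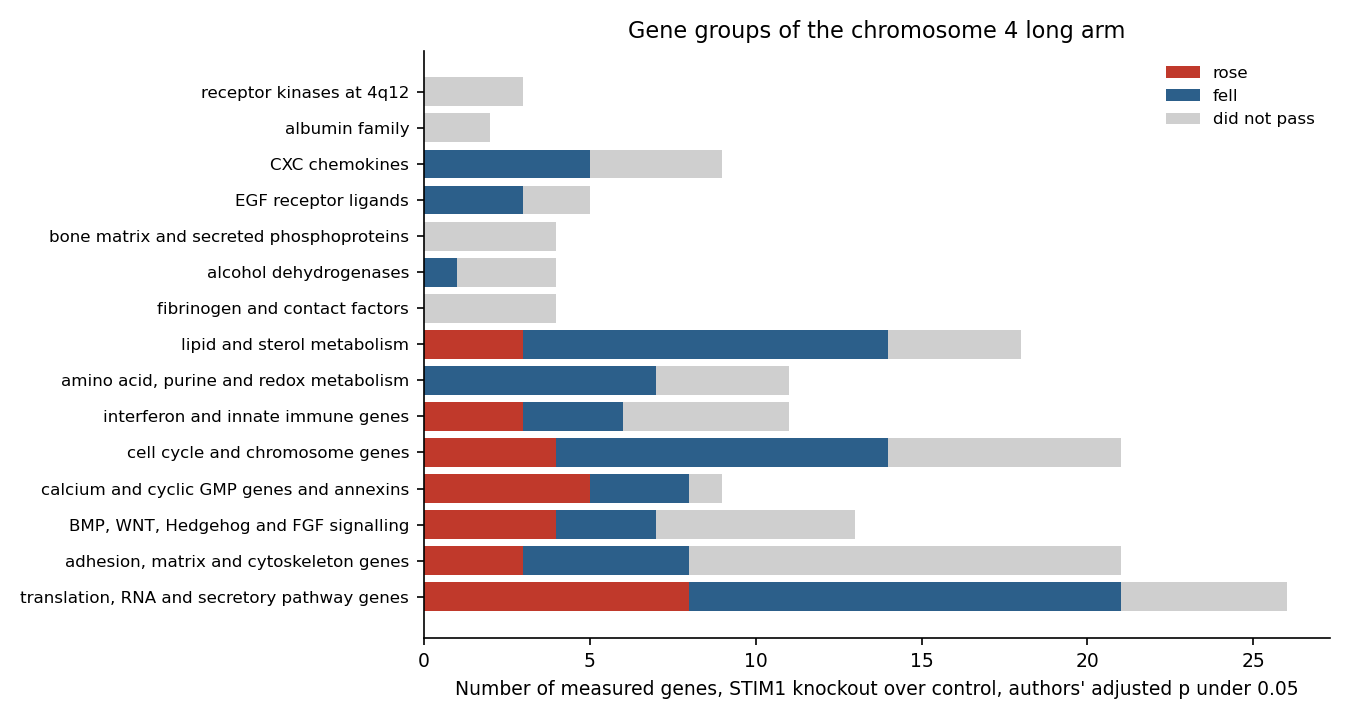
For each list of chromosome 4 long arm genes, the bar gives the number of measured genes that rose (red), fell (blue) or did not pass (grey) in STIM1 knockout over control by the authors' adjusted p. Falls outnumber rises in the metabolic, ligand, alcohol dehydrogenase, cell cycle, translation and adhesion lists. Rises outnumber falls in the calcium list (5 against 3) and the signalling list (4 against 3). Over all listed genes 25.7% rose and 28.8% fell, and over those with a mean of at least 10, 34.2% rose and 36.7% fell.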

How the data were processed

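Messenger RNA of 6 libraries, 3 labelled STIM1 knockout and 3 control, was sequenced from 1 µg of total RNA each, per the labels' protocols. The deposited signal is, per the file headers, a group mean of read counts that the authors divided by size factors. The authors also deposited the ratio (fold change) of the means, its log2 value, and a p-value and adjusted p-value, in columns of the DESeq format. The aligner, the counting tool and its use of strand are not given in the sources used here. Mouse builds (GRCm38 and mm10) are the only ones in the submitters' processing notes, while the chromosome accessions of the table are human, and coordinates are as deposited, in GRCh38.

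Whole reads per library were searched for in the 15 digits of each group mean, a step added after the files were seen. Of 17381 genes 17380 were settled (EEF1A1 was not). The recomputed means differed from the deposited ones by at most 5.09e-11, a match that the search itself required. On simulated data of 16426 genes the search returned every read count (100%). The simulation left out the genes of highest mean, RPS3A and PAICS among them, so recovery at that level was not tested. limma 3.58.1 in R 4.3.3 was fitted to log2(normalised count + 1), with a mean of 1 or more required of each gene, with trend and Benjamini-Hochberg adjustment over all of them; log2 changes with an SE are from this fit, while bin and list medians use the deposited means with 1 added.

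The members, the lists and the rule for named genes were chosen with earlier results of these data known. Named genes were the 8 largest rises and 8 largest falls among members with a mean of at least 50, an adjusted p under 0.05 and no overlap between libraries, and the 4 most abundant measured genes of each list, of which 1 of the largest falls is not reported here; other genes named with values were chosen after they were seen. The stretch borders, the ranking of bins over the genome, the rule for genes near 0, the thresholds of 1 and 2 on the log2 scale and the promoter motifs were also chosen after values were seen. The motif counts were made once for all windows of the table. Exons of 66 members overlap those of another listed gene by at least 50 bases, and YTHDC1 and FRG1, with copies on alternate loci, are uncertain.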

Additional observations from a re-analysis of the deposited data

How the results depend on the processing

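The counts of genes that rose (74 to 104) and fell (86 to 127) stayed within 1.5 times of the main counts under a stricter threshold, limma, other pseudocounts, filters and scalings, voom weights and each library left out. In each setting the median change of all members stayed negative. The sign of the change in named genes that did not pass was not compared between settings. The median change of all members was -0.0725 with limma, -0.0726 with a pseudocount of 0.5 and -0.0645 with one of 5, -0.0388 with a filter of 100 in limma, -0.0688 with total-read scaling in limma and -0.0718 with voom. On the deposited means it was -0.0753 at a mean of at least 1, -0.0405 at a mean of at least 100, -0.0334 with upper-quartile scaling and -0.0325 when centred on other chromosomes. It ran from -0.0823 to -0.0202 with each library left out.

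Bin medians moved as follows with the filter. At a mean of at least 1 they were -0.33 for 60 to 70 Mb, -0.58 for 110 to 120 Mb, -0.15 for 130 to 140 Mb, 0.0663 for 140 to 150 Mb and -1.70 for 170 to 180 Mb. At a mean of at least 100 they were -0.20 for 60 to 70 Mb, 0.17 for 70 to 80 Mb and -0.27 for 110 to 120 Mb, and with a control mean of at least 10, an alternative added after seeing the data, -0.20 for 60 to 70 Mb. The cause was not tested. With each library left out, medians ran from -0.0958 to -0.0373 for 60 to 70 Mb, from 0.0349 to 0.0760 for 70 to 80 Mb, from 0.0912 to 0.175 for 80 to 90 Mb, from 0.202 to 0.266 for 100 to 110 Mb, from -0.0585 to -0.0106 for 120 to 130 Mb, from -0.165 to -0.0871 for 130 to 140 Mb, from 0.0226 to 0.174 for 140 to 150 Mb, from -1.30 to -1.22 for 160 to 170 Mb and from -1.54 to -1.28 for 170 to 180 Mb. Bins of the arm kept their sign throughout.

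Among the lists, 5 innate immune genes rose with limma, with a pseudocount of 5, a filter of 10, each other scaling and voom. A filter of 10 left 3 CXC chemokines that fell and one of 100 left 0, since it removes genes of low level; the filter of 100 also left 1 EGF receptor ligand, 7 lipid genes and 3 adhesion genes that fell, and 2 signalling genes that rose. At an adjusted p under 0.01, 5 translation genes rose, and with each library left out between 5 and 10 rose, while 0 to 1 bone matrix genes fell.

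Named genes kept their side of an adjusted p of 0.05 with limma, with 5 exceptions. PKD2 missed it without knockout library A (0.081) and without control library A (0.0619), and SEC31A without knockout library A, knockout library B, control library A or control library B (0.09 to 0.129); both also missed 0.01. IBSP passed without knockout library B (0.0415), SLC39A8 with voom (0.0462) and without control library C (0.0221), and PDLIM5 without control library C (0.0364). Genes near 0 in knockout and the chemokines of low count rest on few reads there, so the size of their folds is limited by depth. No paired analysis was possible because the deposited columns and the recovered libraries carry no replicate number.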
